A study of Mus musculus with 3 samples.

Results

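The genes described here encode the liver's machinery for burning fatty acids: the enzymes of mitochondrial and peroxisomal beta-oxidation, the carnitine shuttle, ketone body metabolism, the nuclear receptor PPAR-alpha and some of its known targets. They were chosen by name, 33 genes in all, and all 33 were found among the 49492 entries of the count files and reached 1 CPM (1 count per 1000000 counts of the library) in at least 1 library. The libraries came from total liver RNA of CD-1 mice, an outbred stock. Control mice received phosphate-buffered saline (PBS), and treated mice were dosed by mouth with zinc oxide nanoparticles (ZnO NPs), dispersed by ultrasound, at 25 mg/kg body weight each day for 8 or 12 weeks. Each group is 1 library, the labels give neither sex, age, hour of collection nor the number of animals in a library, and the time at which the control was taken is not stated. No difference below therefore has a replicate check, and none is given a p-value. The study's title concerns insulin resistance caused by the particles.

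Beta-oxidation shortens fatty acids stepwise to acetyl-CoA. Long chains are activated to acyl-CoA, carried into mitochondria as carnitine esters and passed through a spiral of dehydrogenase, hydratase, dehydrogenase and thiolase steps, whose electrons enter the respiratory chain through electron transfer flavoprotein. Peroxisomes shorten very long and dicarboxylic acids with an enzyme set of their own. In the fasted liver PPAR-alpha, which pairs with the retinoid X receptor on DNA, raises many of these genes, and the acetyl-CoA is turned into ketone bodies.

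In both treated libraries the genes of fatty acid oxidation stood mostly below the control. Together they took 1.81% of all counts in the control, but 1.14% and 1.08% in the 8-week and 12-week libraries. Of the 33 genes, 30 were below the control at 8 weeks and 30 at 12 weeks, beside 51.6% and 51.0% of all genes at 1 CPM or more. The control held the highest value of the 3 libraries for 29 of the 33, as it did for 38.6% of all genes tested. The deepest differences were in Ehhadh and Acaa1b of the peroxisome, in the carnitine transferase gene Crot, and in the hormone gene Fgf21, whereas Ppara itself was slightly higher in both treated libraries.

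RefSeq sequence upstream of the start site (GRCm38.p6, the build of the files' mm10 coordinates) was at hand for 27 of the 33 genes, in 30 windows of 250 bases. Below are the windows of 4 genes that were at least 2-fold lower at 8 weeks, shown so that their start regions can be compared. Crot, also lower, has all of its window inside annotated exons and is not printed. Capitals mark exact matches, on either strand, to GGGCGG, the GC box bound by Sp1-type factors, or to TATAAA, the TATA box.
Ehhadh, chr16:21787835-21788084, minus strand: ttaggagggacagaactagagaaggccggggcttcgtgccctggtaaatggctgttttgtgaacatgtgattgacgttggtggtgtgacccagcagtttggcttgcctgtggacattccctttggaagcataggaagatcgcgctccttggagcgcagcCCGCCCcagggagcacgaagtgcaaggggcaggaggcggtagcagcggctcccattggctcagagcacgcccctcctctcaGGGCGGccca
Acaa1b, chr9:119157094-119157343, minus strand: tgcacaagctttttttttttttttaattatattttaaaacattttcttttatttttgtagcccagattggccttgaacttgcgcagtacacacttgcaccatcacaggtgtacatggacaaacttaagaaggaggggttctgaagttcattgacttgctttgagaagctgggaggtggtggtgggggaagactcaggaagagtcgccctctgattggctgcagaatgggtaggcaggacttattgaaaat
Fgf21, chr7:45615491-45615740, minus strand: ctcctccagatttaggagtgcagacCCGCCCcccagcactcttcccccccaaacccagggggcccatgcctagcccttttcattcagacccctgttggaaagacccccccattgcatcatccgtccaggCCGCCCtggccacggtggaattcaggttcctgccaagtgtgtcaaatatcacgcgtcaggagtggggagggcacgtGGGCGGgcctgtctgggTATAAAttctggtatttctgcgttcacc
Cpt2, chr4:107923590-107923839, minus strand: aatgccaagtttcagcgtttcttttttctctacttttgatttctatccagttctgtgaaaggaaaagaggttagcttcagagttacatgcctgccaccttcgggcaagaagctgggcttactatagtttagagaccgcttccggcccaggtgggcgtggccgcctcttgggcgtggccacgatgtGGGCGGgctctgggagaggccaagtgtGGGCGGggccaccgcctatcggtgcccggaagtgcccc

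The 4 windows differ in make-up. Fgf21 holds 3 GC boxes and the only TATA box of the 30 windows, at position -28 from the start site, while Acaa1b holds neither and has 41.6% G and C, against 60.4% for Ehhadh. The classical PPAR response element is a direct repeat of AGGTCA separated by a single base. Searched on both strands with any base as the spacer, this repeat was in 0 of the 30 windows and in 0.0335% of all 32851 windows of the same length, and a looser repeat of AGGNCA, spaced the same way, was in 0 and in 0.338%. A single AGGTCA, which also lies within the repeat, was in 5 windows (Cpt1a, Acadm, Acadvl, Echs1 and Creb3l3), or 16.7%, against 14.02% of all. GGGCGG was in 18 windows, or 60.0%, against 32.7% of all, and TATAAA in 1, or 3.33%, against 12.4%; both were added to the search after the windows had been seen. The windows of Hadha and Hadhb, neighbours on opposite strands, share most of their bases and both count, and those of Crot and Etfdh and 1 of Bdh1 lie wholly in exons and were counted too. These are matches of letters in a short window, and elements farther away were not searched.

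Levels are given as CPM after scaling by the TMM method, and a difference as the log2 ratio of CPM + 1 between 2 libraries. Genes at least 2-fold apart are called higher or lower, which is a cut on size without any test. Each bracketed interval is the exact 95% interval for the ratio of the scaled counts, without the added 1 CPM, and takes in counting error alone. For genes at low CPM it is therefore not centred on the printed ratio.

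**Figure D1:**
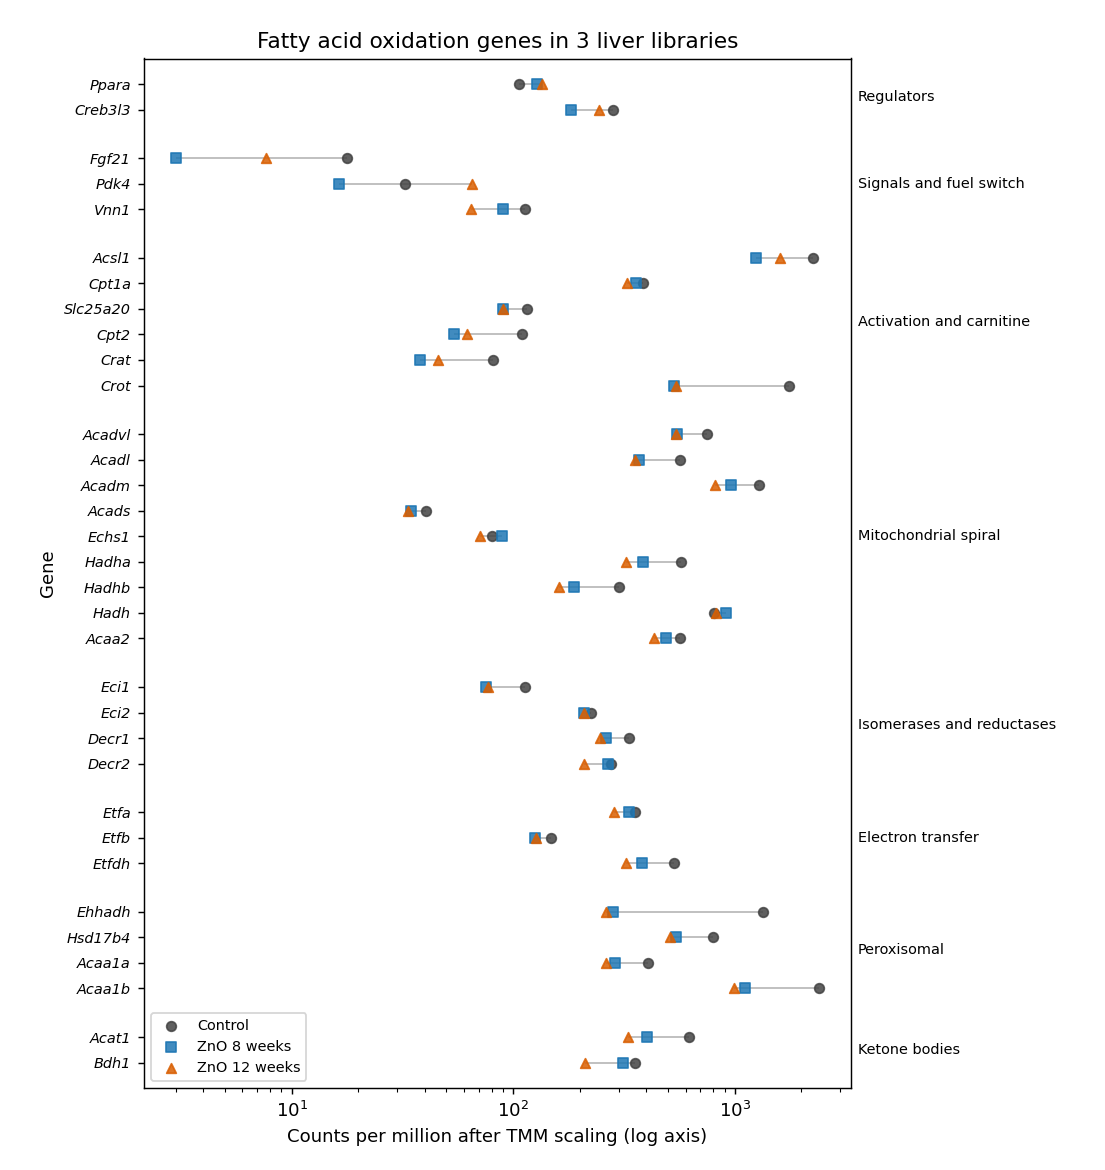
Level of each of the 33 genes in CPM after TMM scaling (log axis) in the control, 8-week and 12-week libraries, 1 point per library, grouped by role. The control point lies farthest right for 29 genes, and Ehhadh and Crot show the widest gaps among the abundant genes.

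Among the regulators, Ppara itself, the nuclear receptor, had levels of 107, 128 and 134 CPM in the control, 8-week and 12-week libraries, an order kept for all values below, with log2 ratios of 0.26 (interval 0.16 to 0.37) and 0.33 (0.23 to 0.44). It was thus higher, by far less than 2-fold, in both treated libraries. Creb3l3 encodes CREBH, a membrane-bound liver transcription factor that acts with PPAR-alpha in fasting. Its levels were 284, 183 and 245 CPM, so the 8-week library was the lowest (log2 ratios -0.63 and -0.21).

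Fgf21, Pdk4 and Vnn1 are PPAR-alpha targets with roles outside the oxidation spiral. Fgf21, a hormone secreted by the fasted liver, was covered by 241, 43 and 102 counts, or 17.8, 3.001 and 7.70 CPM. Both treated libraries were lower by more than 2-fold, with log2 ratios of -2.23 (interval -3.07 to -2.09) and -1.11 (-1.55 to -0.87). Fgf21 had the fewest counts of the 33 genes in every library, and adding 5 CPM in place of 1 gives -0.84 at 12 weeks, short of the 2-fold call. Pdk4, the kinase that switches off pyruvate dehydrogenase and so spares glucose, had 32.6, 16.3 and 65.4 CPM. The treated libraries lay on opposite sides of the control, at -0.96 (-1.23 to -0.77) and 0.98 (0.84 to 1.17), both just short of 2-fold on the CPM + 1 scale; the added 1 CPM decides this at 12 weeks, where the levels themselves are 2-fold apart. Vnn1, a pantetheinase that yields pantothenic acid and cysteamine, had 113, 89.6 and 64.8 CPM (-0.34 and -0.80), highest in the control and lowest at 12 weeks.

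The activation and carnitine genes held 3 of the 6 calls at 8 weeks. Crot, which makes medium-chain acylcarnitines in peroxisomes, had 1760.4, 534 and 543 CPM. The treated libraries were nearly equal and both more than 3-fold lower on the CPM + 1 scale (3.29 and 3.24 times; log2 ratios -1.72 and -1.70). Cpt2, the inner-membrane transferase that regenerates acyl-CoA in the matrix, had 109, 54.0 and 61.9 CPM. Its log2 ratio of -1.001 at 8 weeks (interval -1.14 to -0.89) sat on the 2-fold line and was -0.99 under each of the 3 other scalings tried and -0.95 with 5 CPM added; at 12 weeks it was -0.81. Crat, the acetyl carnitine transferase of mitochondria and peroxisomes, had 80.8, 38.1 and 46.0 CPM (-1.06, interval -1.23 to -0.93, and -0.80). Its 8-week call was lost with 5 CPM added, at -0.99.

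The entry steps of the same route differed among themselves. Acsl1, the main long-chain acyl-CoA synthetase of liver, had 2261, 1255 and 1597 CPM (-0.85 and -0.50), so the 12-week library lay between the others. Cpt1a, the outer-membrane transferase that sets the rate of entry into mitochondria, was close to the control in both, with 387, 357 and 327 CPM (-0.12, interval -0.17 to -0.06, and -0.24, -0.30 to -0.18). Slc25a20, the carrier that moves acylcarnitines across the inner membrane, had 116, 89.8 and 90.4 CPM (-0.36 and -0.35). All 6 genes of this role were below the control in both comparisons.

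The 9 genes of the mitochondrial spiral were shifted by a smaller amount, and none was 2-fold lower or higher in any comparison. Their median log2 ratio was -0.42 at 8 weeks and -0.47 at 12 weeks. Acadm, the medium-chain acyl-CoA dehydrogenase, had 1290.4, 964 and 815 CPM (-0.42 and -0.66). The long-chain dehydrogenase gene Acadl had 566, 369 and 354 CPM (-0.62 and -0.67). The very-long-chain gene Acadvl had 753, 549 and 542 CPM (-0.45 and -0.47). Of the bases in Acadvl exons, 42.9% also lie in exons of the opposite-strand gene Dvl2, whose counts were 6922, 5345 and 4806, so the level of either is uncertain if strand was not used in counting. Acads, for short chains, was the least abundant dehydrogenase of the spiral in CPM per kilobase and stood at -0.22 and -0.27.

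Hadha and Hadhb encode the subunits of the mitochondrial trifunctional protein, which carries long chains through the later steps. Hadha had 571, 385 and 323 CPM and Hadhb 300.4, 189 and 161. The subunits stood at similar ratios, at -0.57 and -0.67 at 8 weeks and -0.82 and -0.90 at 12 weeks. Of the 50-base words in Hadhb transcripts, 19.7% recur in other genes, mostly the model Gm13910, which leaves its level less certain. The enzymes of the same reactions for shorter chains were nearer the control. Hadh, the short-chain hydroxyacyl-CoA dehydrogenase, had 811, 909.8 and 823 CPM (0.17, interval 0.13 to 0.20, and 0.02, -0.02 to 0.06), and the hydratase gene Echs1 had 80.3, 89.1 and 70.5 CPM (0.15 and -0.19). The thiolase gene Acaa2, with 566, 491 and 432 CPM, was at -0.21 and -0.39. Hadh and Echs1 were with Ppara the only genes of the 33 above the control at 8 weeks.

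**Figure D2:**
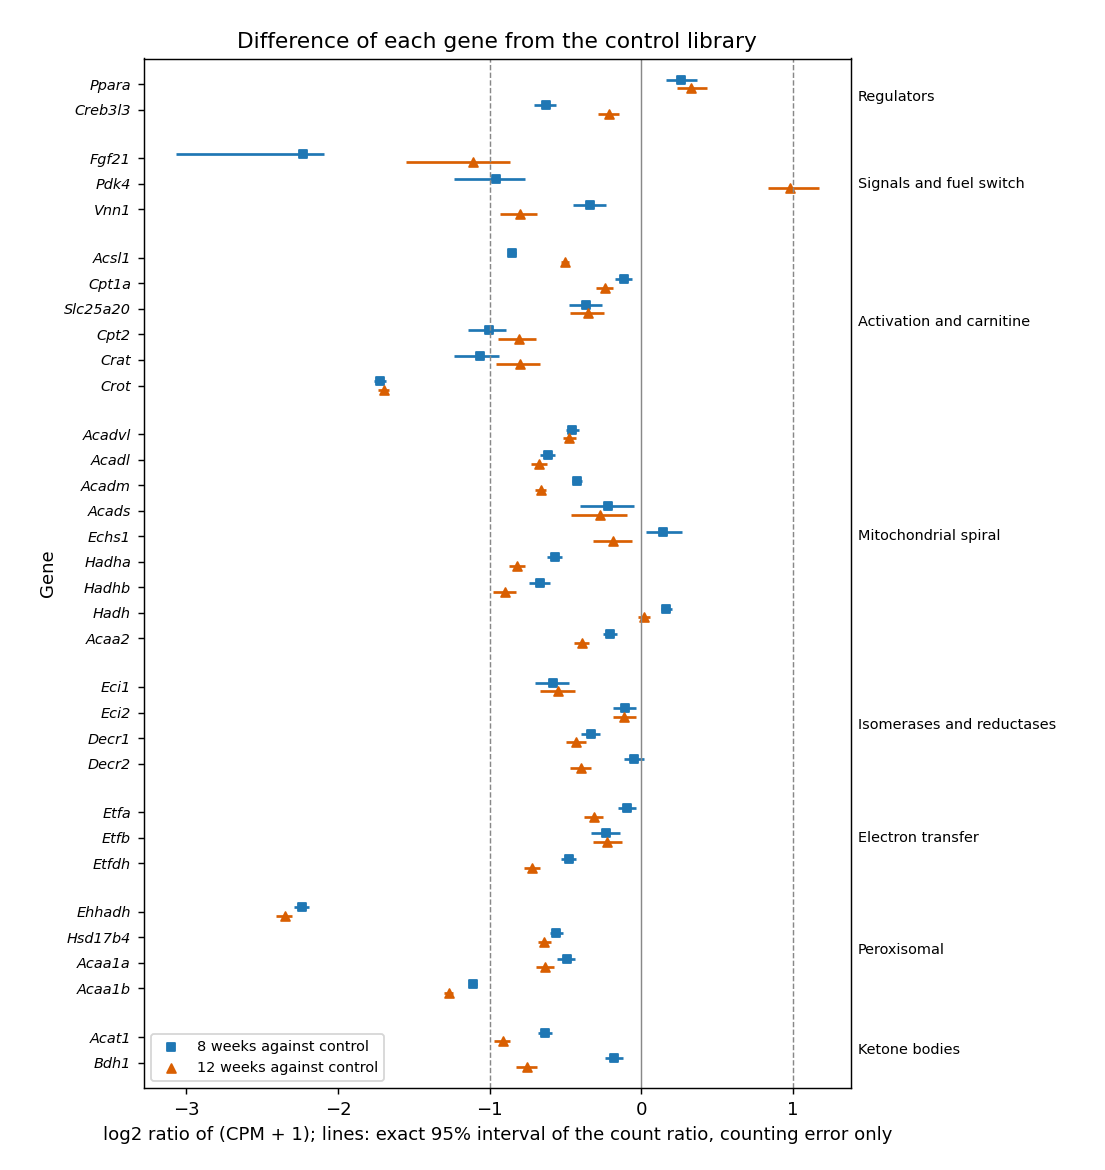
Log2 ratio of CPM + 1 to the control for each gene at 8 weeks (squares) and 12 weeks (triangles), with exact 95% intervals for the ratio of counts (counting error alone); dashed lines mark 2-fold. Ehhadh, Crot, Acaa1b and Fgf21 lie left of the lower dashed line at both times, and Pdk4 lies on opposite sides of 0.

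Unsaturated chains need extra isomerases and reductases, and all 4 genes for them were below the control, with medians of -0.22 at 8 weeks and -0.41 at 12 weeks. Eci1, the mitochondrial enoyl-CoA isomerase, was the lowest of the 4, with 113, 75.3 and 77.2 CPM (-0.58 and -0.55). Eci2, an isomerase found in both organelles, had 226, 209 and 209 CPM and was at -0.11 in both treated libraries. Decr1, the mitochondrial dienoyl-CoA reductase, had 332, 263 and 246 CPM (-0.33 and -0.43). Decr2, its peroxisomal counterpart, had 276, 267 and 209 CPM, at -0.05 (interval -0.11 to 0.02) and -0.40. No difference in Decr2 was detectable at 8 weeks at this depth.

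Electron transfer flavoprotein and its dehydrogenase pass electrons from the acyl-CoA dehydrogenases to ubiquinone. The subunit genes Etfa (355, 332 and 285 CPM) and Etfb (148, 125 and 126 CPM) were at most 0.31 below the control on the log2 scale. Etfdh, the dehydrogenase in the inner membrane, stood lower at 533, 382 and 323 CPM (-0.48 and -0.72). Etfb shares 53.0% of its exon bases with the same-strand model Gm45233, whose counts of 1869, 1686 and 1581 follow its own of 2003, 1797 and 1674, so its level is uncertain.

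Of the 4 genes in the peroxisomal role, Ehhadh and Acaa1b were more than 2-fold lower at both times. Hsd17b4 and Acaa1a stood at ratios like those of the mitochondrial spiral. Ehhadh, the bifunctional enzyme that hydrates and dehydrogenates enoyl-CoA and is a classical PPAR-alpha target, had 1336, 283 and 261 CPM. Both treated libraries were far below the control and close to each other, at -2.24 (interval -2.29 to -2.19) and -2.35 (-2.41 to -2.30). Per length, in CPM per kilobase, Ehhadh was rank 2 of the 33 genes in the control (443) and rank 14 in both treated libraries (93.8 and 86.6). Hsd17b4 encodes the other bifunctional enzyme, which handles branched chains and bile acid precursors, and had 799, 542 and 513 CPM (-0.56 and -0.64). The 2 bifunctional enzymes of the organelle thus differed from the control by unlike amounts.

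Acaa1a and Acaa1b encode near-identical peroxisomal thiolases. Acaa1b had 2396, 1111 and 993 CPM (-1.11 and -1.27), and Acaa1a had 405, 288 and 261 (-0.49 and -0.63). Acaa1b was called lower at both times and Acaa1a at neither. In CPM per kilobase Acaa1b was rank 1 of the 33 genes in every library, at 1221, 566 and 506. Of the 50-base words in Acaa1b transcripts, 30.5% recur in Acaa1a, so reads may have been split between them; their sum, which does not depend on the split, was 2801, 1399 and 1254 CPM.

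For ketone bodies, Acat1 encodes the mitochondrial thiolase that makes acetoacetyl-CoA, and Bdh1 the dehydrogenase that converts acetoacetate to beta-hydroxybutyrate. Acat1 had 625, 403 and 332 CPM (-0.63 and -0.91) and Bdh1 354, 313 and 210.1 CPM (-0.18, interval -0.24 to -0.12, and -0.75, -0.82 to -0.69). The 12-week library was the lowest for both genes, and neither was 2-fold below the control.

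**Figure D3:**
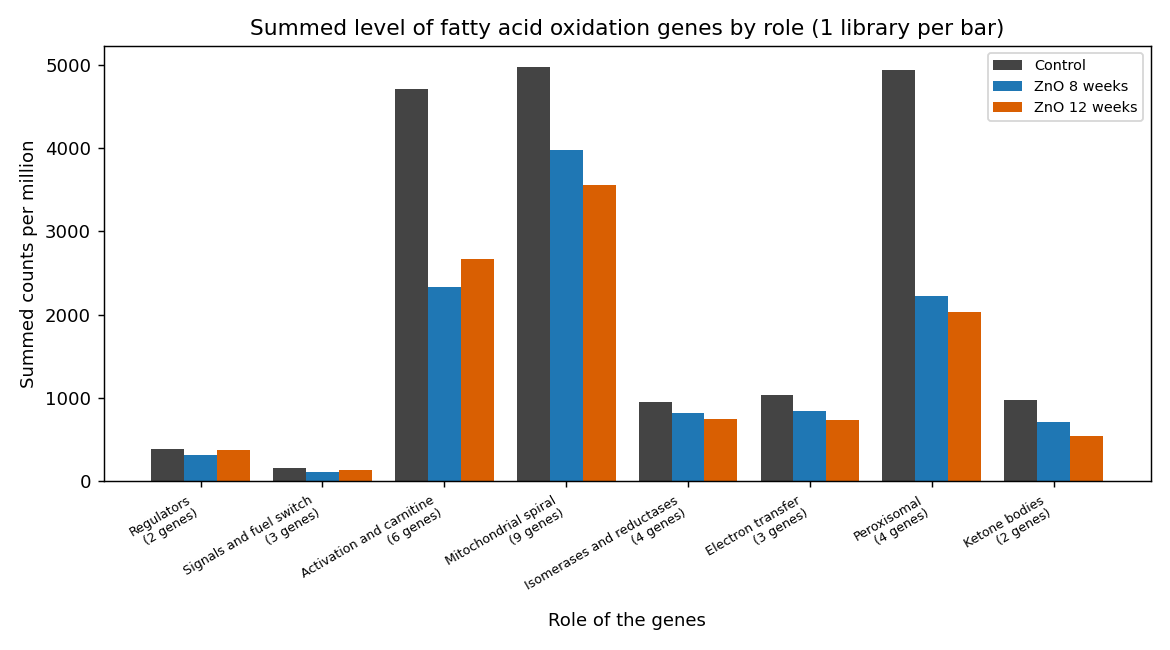
Summed CPM of the genes of each role, 1 library per bar (control, 8 weeks, 12 weeks); bars are to be compared within a role, since sums across roles depend on gene length. The 4 genes of the peroxisomal role summed to 4936, 2224 and 2028 CPM, and the mitochondrial spiral to 4978, 3980.5 and 3554. Crot and Decr2, also of peroxisomes, are counted under other roles.

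At 8 weeks against the control, 6 of the 33 genes, or 18.2%, were called lower (Ehhadh, Fgf21, Crot, Acaa1b, Crat and Cpt2) and 0 higher. Over all 14585 genes at 1 CPM or more, 2.1% were called lower and 4.15% higher, and over the 6360 genes at 20 CPM or more in a library, 2.48% and 3.63%. The 33 genes had a median log2 ratio of -0.48, beside -0.02 over all genes. At 12 weeks, 4 of 33, or 12.1%, were lower (Ehhadh, Crot, Acaa1b and Fgf21) and 0 higher, beside 1.34% and 3.11% of all genes and 1.42% and 2.86% of those at 20 CPM or more. The median was -0.55, beside -0.01 over all genes. The comparisons share their control library, so the likeness of the 8-week and 12-week values is not independent support for either.

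A few abundant genes carried much of the total. The summed level of the 33 genes was 18144, 11322 and 10782 CPM. Acaa1b, Acsl1, Crot and Ehhadh, the 4 with the most counts in the control, made up 67.0% of the net difference at 8 weeks and 59.2% at 12 weeks. The other 29 genes summed to 10390.4, 8139.5 and 7388 CPM, which is 78.3% and 71.1% of the control.

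Between the treated libraries, 2 of the 33 genes were higher at 12 weeks and 0 lower, beside 1.28% and 1.23% of all genes and 1.49% and 0.943% of those at 20 CPM or more. Pdk4 was at 1.94 (interval 1.79 to 2.22) and Fgf21 at 1.12 (0.83 to 1.91), the latter at 0.67 with 5 CPM added. All 9 genes of the mitochondrial spiral were lower at 12 than at 8 weeks, by small amounts (median -0.19, lowest -0.33 in Echs1), though the intervals of Acadvl (-0.07 to 0.03) and Acads (-0.24 to 0.14) span 0. Of 20 mitochondrial genes outside fatty acid oxidation 18 were also lower, with a median of -0.21, beside 50.1% of all genes. The 4 genes of the peroxisomal role and both ketone genes were lower as well, with Bdh1 at -0.57. In the activation and carnitine role Acsl1 (0.35), Crat (0.26) and Cpt2 (0.19) were instead higher at 12 weeks with intervals above 0, while those of Slc25a20 (-0.10 to 0.12) and Crot (-0.02 to 0.07) span 0. The median over the 33 genes was -0.10.

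The remaining genes of the pathway, a list of 50 that leaves out the 33, were less shifted as a whole. At 8 weeks 31 of 50 were below the control, with 4 called lower, 4 higher and a median of -0.14. Over all genes 51.6% were below the control, 2.1% called lower and 4.15% higher. At 12 weeks 33 of 50 were below, with 0 lower, 2 higher and a median of -0.07. The shares over all genes were then 51.0% below, 1.34% lower and 3.11% higher. The list was drawn up with earlier results of these data known. Called lower at 8 weeks were the lipid droplet genes Cidec (9.73, 2.93 and 5.21 CPM) and Plin5 (91.2, 35.5 and 58.7 CPM), the monocarboxylate and ketone carrier Slc16a1 (203, 80.6 and 109 CPM) and the carnitine importer Slc22a5 (67.7, 29.5 and 66.6 CPM). Called higher were the fatty acid translocase Cd36 (11.3, 76.7 and 64.6 CPM), the peroxisomal transporter Abcd2 (11.6, 49.3 and 22.0 CPM), the coactivator Ppargc1a (15.4, 53.5 and 30.2 CPM) and the synthetase Acsl4 (44.9, 92.9 and 118 CPM). Cd36 (2.41) and Acsl4 (1.37) were also higher at 12 weeks, on the log2 scale. Between the treated libraries Slc22a5 was higher at 12 weeks (1.15) and Abcd2 lower (-1.13).

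Fabp1, Scp2 and Slc27a2 were among the 4 most abundant of those 50 genes per length in the control, and none of the 3 was 2-fold away from it. Fabp1, the fatty acid binding protein of hepatocytes, had 1819, 1348 and 1193 CPM, the sterol carrier gene Scp2 5994, 4948 and 4907 CPM, and Slc27a2, a very-long-chain synthetase, 2621, 2165 and 1857 CPM. All 3 were highest in the control.

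**Figure D4:**
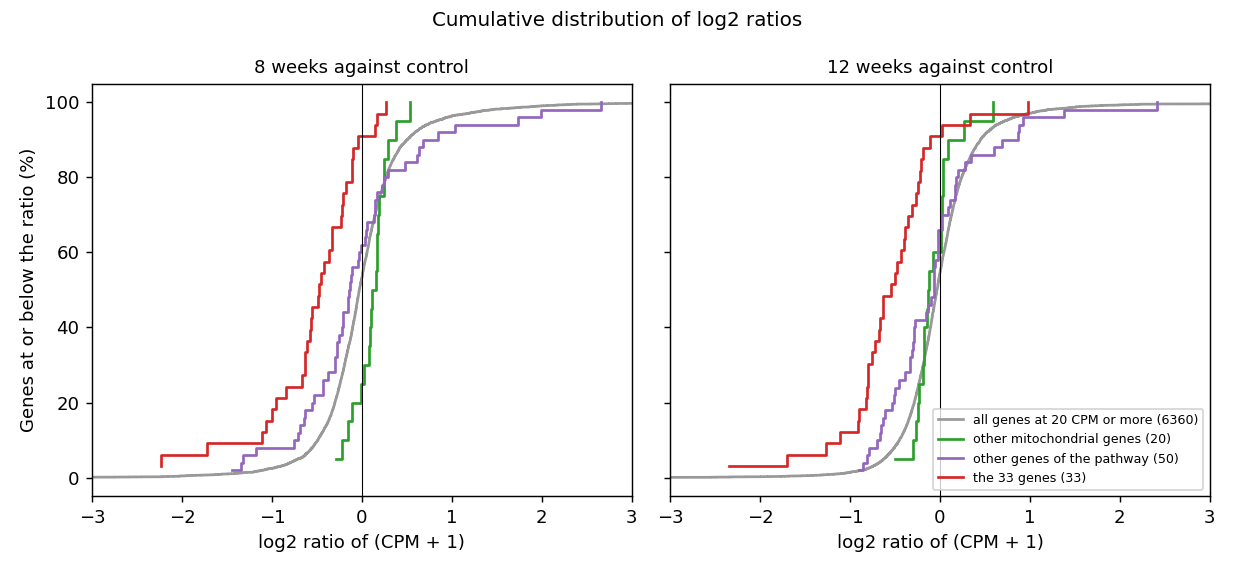
Cumulative percentage of genes at or below each log2 ratio of CPM + 1 to the control, at 8 weeks (left) and 12 weeks (right), for all genes at 20 CPM or more, 20 other mitochondrial genes, 50 other genes of the pathway and the 33 genes. The curve of the 33 genes lies left of the others over most of its range, with medians of -0.48 and -0.55.

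Mitochondrial genes outside fatty acid oxidation gave a point of reference. Of 20 genes of the citric acid cycle, respiratory chain and outer membrane, none was called in either comparison. Over all genes 2.1% were lower and 4.15% higher at 8 weeks, and 1.34% and 3.11% at 12 weeks. With 20 genes, 0 calls is near these shares. The medians of the 20 were 0.13 at 8 weeks and -0.13 at 12 weeks. At 8 weeks 15 of the 20 were above the control, whereas 51.6% of all genes were below it. Their summed level was 3573, 3983 and 3406 CPM. Of the 19 mitochondrial genes among the 33, 2 were called lower at 8 weeks and 0 at 12 weeks, beside 2.1% and 1.34% of all genes. The 0 of 19 at 12 weeks is near the share over all genes. The medians of the 19 were -0.42 and -0.47.

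Other features of the libraries also differed between the groups, not all in step with these values. The hepatocyte markers, 9 of 10 of them found under the listed symbols and none at 0, summed to 48429, 57275 and 60270.3 CPM (medians 0.06 and 0.28). The albumin gene Alb held 21847, 31793 and 31169 CPM of these sums. Of the 9 markers, 5 were above the control and 4 below at 8 weeks, and 6 above and 3 below at 12 weeks. The markers of Kupffer cells, the macrophages of the liver, were called higher for 12 of 12 genes at 8 weeks and 11 of 12 at 12 weeks, with sums of 96.7, 405 and 305 CPM. Skeletal muscle markers summed to 1.92, 188 and 1.36 CPM, with 6, 0 and 4 of 10 at 0 counts, and muscle also burns fatty acids. Among 6 adipocyte markers only Fabp4 reached 1 CPM, and 4, 3 and 4 of them had 0 counts. Of 18 clock genes 6 were higher and 4 lower at 8 weeks, and 1 and 1 at 12 weeks, with Arntl at 18.1, 1.40 and 5.29 CPM. The part of these cell types and of the clock in the levels of the 33 genes was not tested, and in whole liver fewer cells of a type and less RNA per cell cannot be told apart.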

How the data were processed

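RNA sequencing of liver gave 1 library for each of 3 groups. The authors deposited estimated counts per gene, not scaled to depth, per the file headers and the values; 70.4%, 70.2% and 71.5% of those above 0 were whole within 0.005. TopHat2 (2.1.0), Cufflinks (2.2.1.0), mm10 and mm9 are listed in the submitters' processing notes with no role. Which program counted reads, and whether by strand, is not given in the sources used here. Gene length, another deposited column per the file headers, is in bases and merges all isoforms, so it lowers CPM per kilobase where rare isoforms are long. Of the 33 genes, 27 had the same start and end in GENCODE M21 (GRCm38).

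Counts were rounded and summed to 13614979 (control), 14258770 (8 weeks) and 13263211 (12 weeks), where 3 counts are 0.220, 0.210 and 0.226 CPM; the fewest counts of any of the 33 genes was 43. Libraries were scaled by TMM in edgeR 4.0.16 (R 4.3.3), with DESeq2 1.42.0 size factors as an alternative. Genes at 1 CPM or more in a library were kept, and 1 CPM was added before log2, which understates changes of low genes. With 1 library a group no test was possible. Clopper-Pearson 95% intervals cover counting error only, without variation between animals. They may be too narrow even for that, since amplified reads are not independent molecules. Calls and intervals were tried on simulated counts that held counting error alone, without variation between animals. That checks the computation and cannot show whether a call would hold in other animals.

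The genes and lists were chosen with earlier results of these data known. Values in all libraries are given for genes called at 2-fold in any comparison and for the best-known gene of each role, and the others by role; of the other pathway genes, those called and the 4 most abundant per length were to be named, and not all of them are reported here. Promoter sequences are from RefSeq (GRCm38.p6); in the 4 printed windows at most 21 bases lie in an exon of the files.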

Additional observations from a re-analysis of the deposited data

Results flagged for a closer look

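For 2 of the 33 genes the 8-week and 12-week libraries lay on opposite sides of the control, with both counting intervals leaving 0 out. Pdk4 had log2 ratios of -0.96 at 8 weeks and 0.98 at 12 weeks, from 443, 234 and 866 counts in the control, 8-week and 12-week libraries. Echs1 had 0.15 and -0.19, from 1090, 1276 and 934 counts. With 1 library per group the difference in direction was not tested.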

How the results depend on the processing

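Alternatives changed 1 choice at a time: the added CPM, the scaling, the filter, the fold of the call and the rounding, and 2 chosen after seeing the data, namely library totals without skeletal muscle markers and a set of 27 genes without the 6 that share over 10% of their transcript words or exon bases with another gene. No median changed sign, and neither did any of the 48 single-gene ratios that were compared. The ratios of the remaining genes were not compared. Under a 1.5-fold call, 12 of the 33 genes were lower at 8 weeks, 16 lower and 1 higher at 12 weeks; of the 50 other pathway genes 8 were higher and 9 lower at 8 weeks, 7 higher and 9 lower at 12 weeks, and 4 higher and 2 lower between the treated libraries. Under a 3-fold call, 3 of the 33 were lower at 8 weeks and 2 at 12 weeks, and 1 was higher between the treated libraries. Of the 50, Cd36, Abcd2 and Ppargc1a stayed higher at 8 weeks (log2 ratios 2.65, 1.99 and 1.73) and 0 were lower. Of the same 50, 1 was higher at 12 weeks, and 0 were higher and 0 lower between the treated libraries. With 5 CPM added, 4 of the 33 were lower at 8 weeks (without Cpt2 and Crat) and 3 at 12 weeks (without Fgf21), and 1 was higher between the treated libraries (without Fgf21). Under DESeq2, upper-quartile or total-count scaling 5 were lower at 8 weeks (without Cpt2). The share over all genes was worked out for the main setting only. The counts under these other calls, added CPM and scalings therefore cannot be set against all genes. The muscle markers hold 0.0189% of the counts at 8 weeks, so leaving them out of the totals could hardly move a ratio, and it takes no muscle reads out of the 33 genes. The set of 27 genes had 5 lower at 8 weeks and 3 at 12 weeks, with medians of -0.48 and -0.50. No paired analysis was possible because each group holds 1 library, and no library could be left out for the same reason. Depth limited Fgf21 most, with 43 counts at 8 weeks.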

Other observations

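The Acot and Cyp4a families, thioesterases and fatty acid hydroxylases with some members under PPAR-alpha control, held calls in both directions at 12 weeks. Of 12 genes, 5 were lower and 0 higher at 8 weeks, beside 2.1% and 4.15% of all genes. At 12 weeks 5 were lower and 2 higher, beside 1.34% and 3.11%. These families hold similar copies, and single values are uncertain.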
